A study of Mus musculus with 2 samples.

Results

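Mir183, Mir96 and Mir182 are 3 microRNA (miRNA) genes that lie within 4 kb of each other on the minus strand of mouse chromosome 6 and form the cluster often named after sensory neurons. They were found in the deposited counts by their Ensembl gene identifiers, paired with symbols through GENCODE M21, and are 3 of 1973 miRNA genes counted. All 3 were among the 371 genes detected with at least 10 reads in each library. The rule that picks the genes, by identifier and position, uses no measured value, though the genes were picked with earlier results of these data known. The libraries were made from neural tube, the embryonic precursor of brain and spinal cord, of healthy B6NCrl mouse embryos aged 12.5 days. The group holds 2 biological replicates, both pools of male and female embryos: 120 embryos gave replicate 1 and 88 gave replicate 2. There is no other tissue, age or treatment, so the values below are levels within this tissue and ratios between its libraries. No transgene or mutation is named in the labels.

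A miRNA is cut from a hairpin transcript, loaded into an Argonaute protein, and directs it to messenger RNAs that pair with its seed, bases 2 to 8 of the mature strand. The 3 genes are known as a polycistron, made as a common primary transcript and conserved across vertebrates. They are known for high expression in photoreceptors, inner ear hair cells, olfactory neurons and the sensory neurons of dorsal root ganglia, and changes in the seed of Mir96 cause hearing loss in mice and in humans. Dorsal root ganglia arise from neural crest and lie beside the spinal cord. The counted features are miRNA genes alone, so protein-coding markers of sensory neurons were not read out and the name of the cluster was not checked against them.

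The mature strands of the 5′ arms are shown because the 3 miRNAs are grouped by their seeds. The sequences are from RefSeq (GRCm38.p6), where all 3 genes were matched by symbol with the same hairpin coordinates as GENCODE. They are written 5′ to 3′ with the seed in capitals.
miR-183-5p: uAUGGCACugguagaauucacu
miR-96-5p: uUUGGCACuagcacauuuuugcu
miR-182-5p: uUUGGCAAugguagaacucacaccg
All 3 begin with U, as did 39.7% of the 300 annotated 5′ strands of detected genes, and they are 22, 23 and 25 bases long. Counted from base 1 at the 5′ end, the seed of miR-183-5p differs from that of miR-96-5p by A2U. The seed of miR-96-5p differs from that of miR-182-5p by C8A, and that of miR-183-5p from miR-182-5p by both A2U and C8A. Bases 3 to 7, UGGCA, are shared by all 3. Outside the seed the relation runs differently. Set base against base from the 5′ end, miR-183-5p and miR-182-5p match at 18 of 22 bases, with U17C and U22A as the differences outside the seed. They share the run UGGUAGAA from base 9. The miR-183-5p and miR-96-5p strands match at 13 of 22 bases, and miR-96-5p and miR-182-5p at 12 of 23.

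No other annotated mouse strand among 1738 in the RefSeq table carries the seed of miR-183-5p or of miR-182-5p. The seed of miR-96-5p is shared by 1 other strand, miR-1271-5p, whose gene on chromosome 13 is Gm24195 in the counts. Neither library held a read of Gm24195 (0 reads in each). A count of 0 allows a level of up to 0.625 reads per 1000000 gene reads in replicate 1 and 0.678 in replicate 2 (3 counts, counting error only). With UGGCA at bases 3 to 7 there was 1 further strand, miR-7022-5p, and its gene Mir7022 had 0 reads in replicate 1 and 1 read in replicate 2.

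The hairpins are shown to place both arms, since a gene count adds the reads of both and the arms could not be told apart. The annotated mature strands are in capitals.
Mir183: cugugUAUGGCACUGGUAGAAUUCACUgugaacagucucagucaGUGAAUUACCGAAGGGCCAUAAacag
Mir96: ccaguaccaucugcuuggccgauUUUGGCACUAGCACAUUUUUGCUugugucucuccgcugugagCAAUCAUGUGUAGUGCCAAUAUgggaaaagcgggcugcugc
Mir182: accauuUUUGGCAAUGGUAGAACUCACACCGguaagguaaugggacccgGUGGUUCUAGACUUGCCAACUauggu
In mm10 the Mir183 hairpin spans 30169668 to 30169737, Mir96 spans 30169446 to 30169551 and Mir182 spans 30165918 to 30165992, all on the minus strand of chromosome 6. Read in the direction of transcription, Mir183 comes first, Mir96 follows after 116 bases and Mir182 after a further 3453 bases. No other gene of GENCODE M21 overlaps the cluster on either strand, so the hairpins are intergenic, in no annotated exon, intron or UTR of a host gene. The nearest gene is the long non-coding RNA gene Rncr4, which starts 3155 bases beyond Mir183 on the plus strand and runs away from the cluster. On the far side the protein-coding gene Nrf1 ends 12.5 kb from Mir182 on the plus strand. Ube2h, on the minus strand, lies 41.6 kb beyond Mir183.

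**Figure D1:**
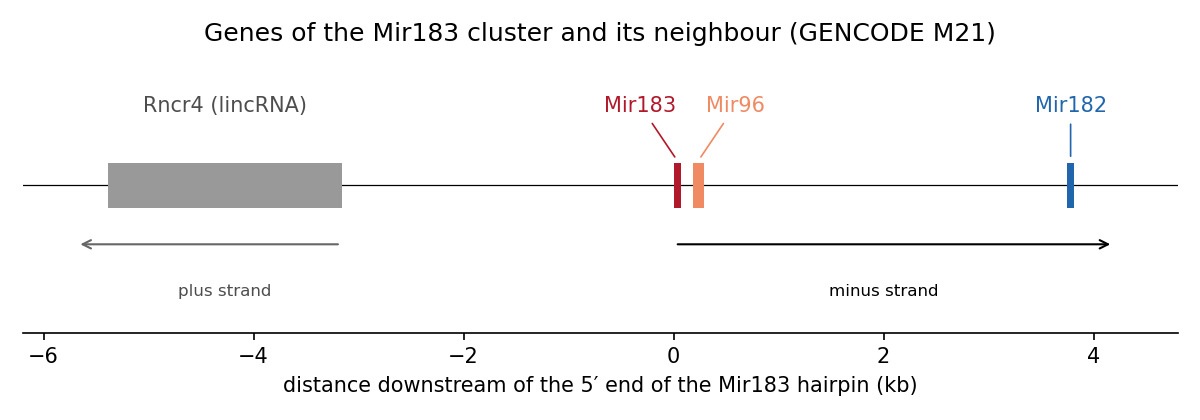
Map of the cluster in GENCODE M21, with distance in kb from the 5′ end of the Mir183 hairpin along the minus strand on the x axis; boxes are hairpins or the Rncr4 gene, drawn to scale, and arrows give the direction of transcription. Mir183 and Mir96 lie 116 bases apart and Mir182 lies 3453 bases further on.

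None of the 3 hairpins shares 20 bases with another annotated miRNA hairpin on either strand. Each of the 6 mature strands, searched on both strands of 141767 GENCODE transcripts, was found only in its own gene. No gene's count includes reads that map to several places. They were 27.0% of all reads in replicate 1 and 28.6% in replicate 2. Copies outside annotated transcripts were not searched.

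Levels are given as reads per 1000000 reads on the own strand of miRNA genes (CPM). There were 4802411 such reads in replicate 1 and 4422853 in replicate 2. A read of these libraries (size range under 30 in the labels) covers a mature strand and not the hairpin, and the 5′ strands are of like length, so CPM was set side by side without dividing by hairpin length. Capture can differ from sequence to sequence and was not measured, so a ratio between genes is one of reads, not of molecules. In bulk tissue, fewer cells of a type and less RNA per cell cannot be told apart. Whether the dissected tissue held ganglion cells is not given in the labels.

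Mir183 had the most reads of the cluster. It had 44949 reads, or 9359.7 CPM, in replicate 1 (95% exact binomial interval 9274 to 9446) and 52573 reads, or 11887 CPM, in replicate 2 (11786 to 11988). The mean was 10623 ± 1787 CPM (SD, n = 2), and Mir183 ranked 19 of all 1973 genes by its mean. Replicate 1 was the lower library, and the intervals, which cover counting error only, did not overlap.

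Mir182, the gene farthest along the transcript, had 32768 reads, or 6823 CPM, in replicate 1 (6750 to 6897) and 46806 reads, or 10583 CPM, in replicate 2 (10488 to 10679). Its mean of 8703 ± 2658 CPM (SD, n = 2) ranked 21. Its SD was 30.5% of its mean, against 16.8% for Mir183 and 16.5% for Mir96, so it was the member that varied most between the pools.

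Mir96, whose seed changes cause deafness, had the fewest reads. It had 13978 reads, or 2911 CPM, in replicate 1 (2863 to 2959) and 16275 reads, or 3680 CPM, in replicate 2 (3624 to 3737). The mean was 3295 ± 543.9 CPM (SD, n = 2), at rank 53. Both libraries put the 3 genes in the same order, Mir183 above Mir182 above Mir96. With 2 libraries no exact two-sided test of such an order can go below p = 0.5, so none was made.

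**Figure D2:**
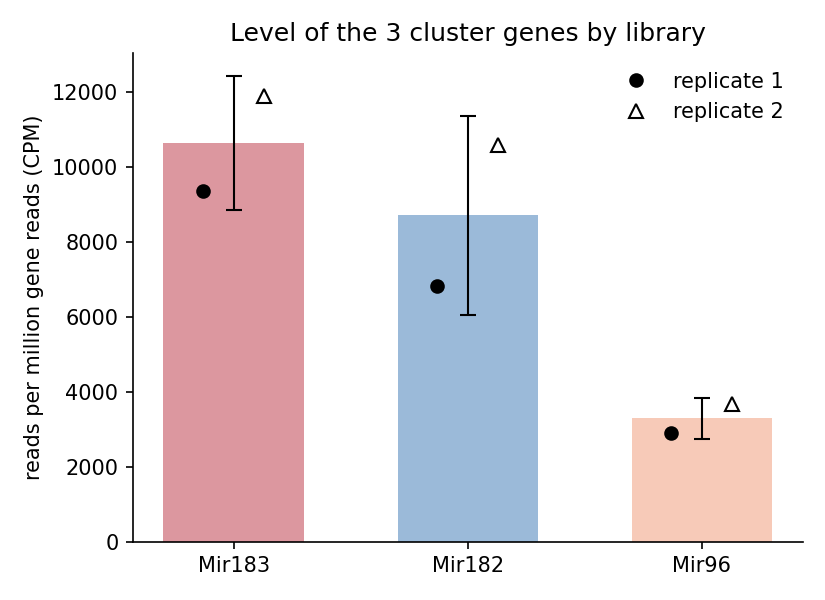
Level of each gene in CPM on the y axis, with bars for the mean and error bars for the SD of the 2 libraries; circles are replicate 1 and triangles replicate 2. Replicate 2 lies above replicate 1 for all 3 genes, and the gap is widest for Mir182, at 6823 CPM in replicate 1 and 10583 in replicate 2.

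Together the 3 genes held 1.91% of gene reads in replicate 1 and 2.61% in replicate 2. Mir183 made up 49.0% of the cluster's reads in replicate 1 (exact binomial interval 48.7 to 49.3) and 45.5% in replicate 2 (45.2 to 45.7). Mir182 made up 35.7% in replicate 1 (35.4 to 36.0) and 40.5% in replicate 2 (40.2 to 40.8). Mir96 made up 15.2% in replicate 1 (15.0 to 15.5) and 14.1% in replicate 2 (13.9 to 14.3). The make-up of the cluster thus moved by more than counting error between the pools, toward Mir182 in replicate 2.

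The ratios between members do not depend on the library total. Mir183 had 3.22 times the reads of Mir96 in replicate 1 (exact binomial interval 3.16 to 3.28) and 3.23 times in replicate 2 (3.17 to 3.29), a mean of 3.22 ± 0.0103 (SD, n = 2). This ratio of the adjacent pair differed between the pools by less than counting error. Mir183 had 1.37 times the reads of Mir182 in replicate 1 (1.35 to 1.39) and 1.12 times in replicate 2 (1.11 to 1.14), a mean of 1.25 ± 0.176. It stayed above 1 by more than its spread. Mir182 had 2.34 times the reads of Mir96 in replicate 1 (2.30 to 2.39) and 2.88 times in replicate 2 (2.83 to 2.93), a mean of 2.61 ± 0.376. Mir182 thus shifted against both other genes, whose proportion to each other moved by less than counting error.

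In the order of all genes, Mir183 stood beside Mir20a and Mir93, members of the Mir17 cluster and of a paralog of it. Mir20a, directly above, had 9485 CPM in replicate 1 and 11991 in replicate 2, or 1.01 ± 0.00324 times Mir183 (SD, n = 2). Mir196b, the Hox cluster miRNA above Mir20a, had 1.07 ± 0.140 times the reads of Mir183, and Mir93, directly below, 0.965 ± 0.0635 times. Both differed from Mir183 by less than the spread. Mir20a lay above Mir183 by more than its small spread, at 1.01 times its reads in each library. Mir182 followed below Mir93, which had 1.21 ± 0.249 times its reads. Below Mir182 stood Mir487b at 0.983 ± 0.297 and Mir92b at 0.985 ± 0.601 times its reads, and these 3 neighbours also did not differ from it beyond the spread. Mir96 stood between Mir298 and Mir382 above, with 1.18 ± 0.353 and 1.06 ± 0.327 times its reads, and Mir139 and Mir15a below, with 0.979 ± 0.0632 and 0.947 ± 0.241 times. None of the 4 differed from it beyond the spread. Mir487b shares 20 bases with 1 other miRNA gene on either strand, so reads that map to several places may be missing from its value.

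To set the gap between the libraries beside that of other genes, counts were scaled by TMM, a trimmed mean of gene ratios. The log2 ratio of replicate 1 over replicate 2 was -0.38 for Mir183, -0.67 for Mir182 and -0.38 for Mir96, so replicate 1 had 0.766, 0.628 and 0.770 times the level of replicate 2. The median over the members was -0.38, against 0.0041 over all 371 detected genes. A two-sided exact binomial test of the counts given the scaled totals, adjusted by Benjamini-Hochberg over the 371 genes, called 3 of 3 members lower in replicate 1. The largest of their adjusted p-values was 5.78e-113, for Mir96. Of all genes tested 27.0% were called lower in replicate 1 and 53.1% were called in either direction. The test covers counting error alone and compares libraries, so at this depth passing it shows no more than a gap beyond counting error.

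With at least 1.5-fold as well, 1 of the 3 was called lower, Mir182, and so were 1.62% of all genes, 6 of 371. Measured against the replicate error, the gaps were smaller. The common coefficient of variation over detected genes was 16.3%, which gives a log2 ratio of 2 libraries an SD of 0.33. It was estimated from these same 2 libraries, members included. It thus sets a gap beside the typical gap of all genes and is no independent measure of error. Mir182 lay 2.02 such SDs below 0, Mir183 1.15 and Mir96 1.13. Over all 371 detected genes, 7 had a lower ratio than Mir182, 28 a lower ratio than Mir183 and 30 a lower ratio than Mir96. Among the 194 genes with a mean of at least 100 CPM these numbers were 1, 6 and 8. Only among more abundant genes, at levels chosen after the values were seen, were the members the lowest: they had the 3 lowest ratios of 89 genes with a mean of at least 1000 CPM. Mir20a stood next, at -0.38, equal to Mir96 to 2 decimals. The same held for the 114 genes with at least 500 CPM and the 65 with at least 2000 CPM. The order within the libraries does not depend on the scaling, since scaling moves all ratios alike.

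**Figure D3:**
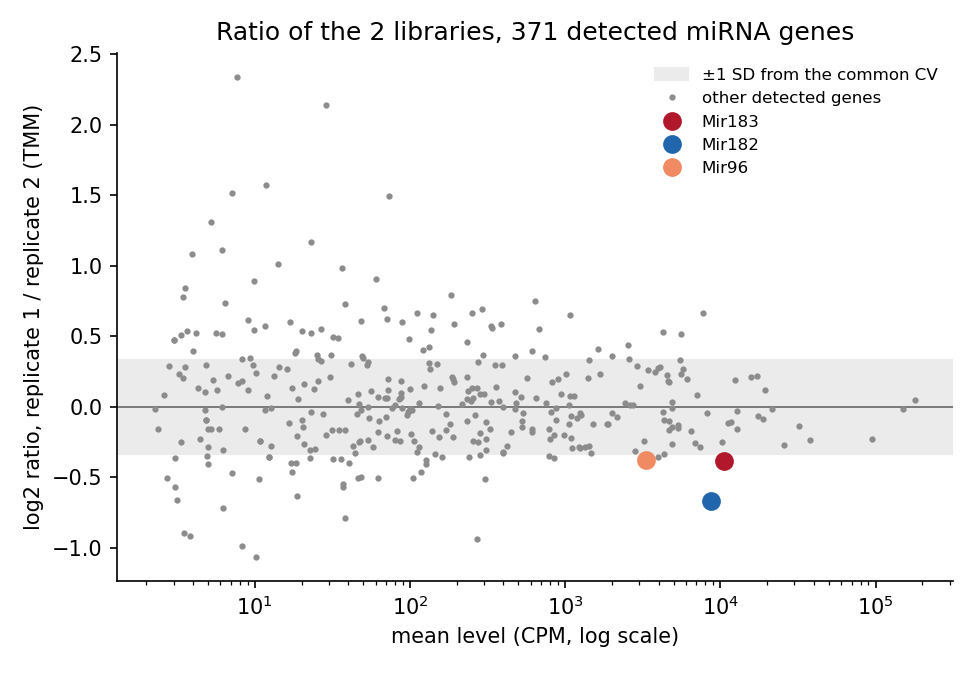
Log2 ratio of replicate 1 over replicate 2 after TMM scaling on the y axis against mean level in CPM on a log x axis, for 371 detected genes; the grey band is 1 SD either side of 0 from the common coefficient of variation. Mir182 lies at -0.67, below the band, and Mir183 and Mir96 lie just under it at -0.38.

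The genes whose library ratio was most like the members' were named by the smallest difference from the median of -0.38, over 2 libraries and 191 genes with a mean of at least 100 CPM. They were Mir877, Mir20a, Mir134, Mir181a-1 and Mir3071, at log2 ratios of -0.38, -0.38, -0.36, -0.36 and -0.36. With 2 libraries this likeness is a single number per gene, and 10 of the 191 lay within 0.05 of the median. Of the 5, Mir20a is also the neighbour of Mir183 in level, while Mir877, at a mean of 127.3 CPM, had far fewer reads than any member. Mir181a-1 and Mir3071 each share 20 bases with 1 other miRNA gene on either strand. A gene annotated antisense at the same place would also count as sharing.

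The spread inside the cluster was set beside that of other miRNA clusters, taken as genes on 1 strand with neighbours within 10 kb and at least 3 detected members. There were 13 others with 93 detected genes. Summed over its members, the Mir183 cluster had 22621 CPM and ranked 3 of the 14, below the Mir17 to Mir92-1 cluster with 45218 CPM and the Mir379 to Mir3072 cluster with 33696 CPM. Its highest member had 3.22 times the reads of its lowest, a range of 1.69 on the log2 CPM scale, against a median range of 6.13 in the others. Of those, 1 had a narrower range, the Mir292 to Mir294 cluster at 1.21, whose 3 detected genes together had 23.7 CPM. The Mir17 to Mir92-1 cluster spanned 10.26 on the same scale. Its lowest gene, Mir19b-1 at 20.8 CPM, shares 20 bases with 1 other miRNA gene, so reads that map to several places may be missing from it. Most of the other clusters hold such genes, which can widen their range, and the Mir183 cluster holds none. The Mir429 to Mir200b, Mir25 to Mir106b, Mir500 to Mir532 and Mir341 to Mir370 clusters also hold none, and spanned 2.94, 4.28, 4.64 and 6.63. Clusters with more detected genes can span more, and both clusters here with the narrowest ranges have 3.

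The library ratios of the Mir183 cluster also lay close together, within 0.29 on the log2 scale, against a median of 0.70 in the others. The cluster of Mir25, Mir93 and Mir106b, a paralog of the Mir17 cluster, was narrower at 0.14. These were also the 2 clusters of the 14 in which all detected members lay on 1 side of 0, both lower in replicate 1. None of the 13 others had a lower median ratio than the Mir183 cluster, and 1 of 16 others did with neighbours joined over 50 kb. Clusters with more detected genes, or with genes of few reads, can span more here too. In the Mir292 to Mir294 cluster, Mir294 had 51 reads in replicate 1 and 16 in replicate 2, at a log2 ratio of 1.51. These cluster values are descriptions of 2 libraries, with no test.

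**Figure D4:**
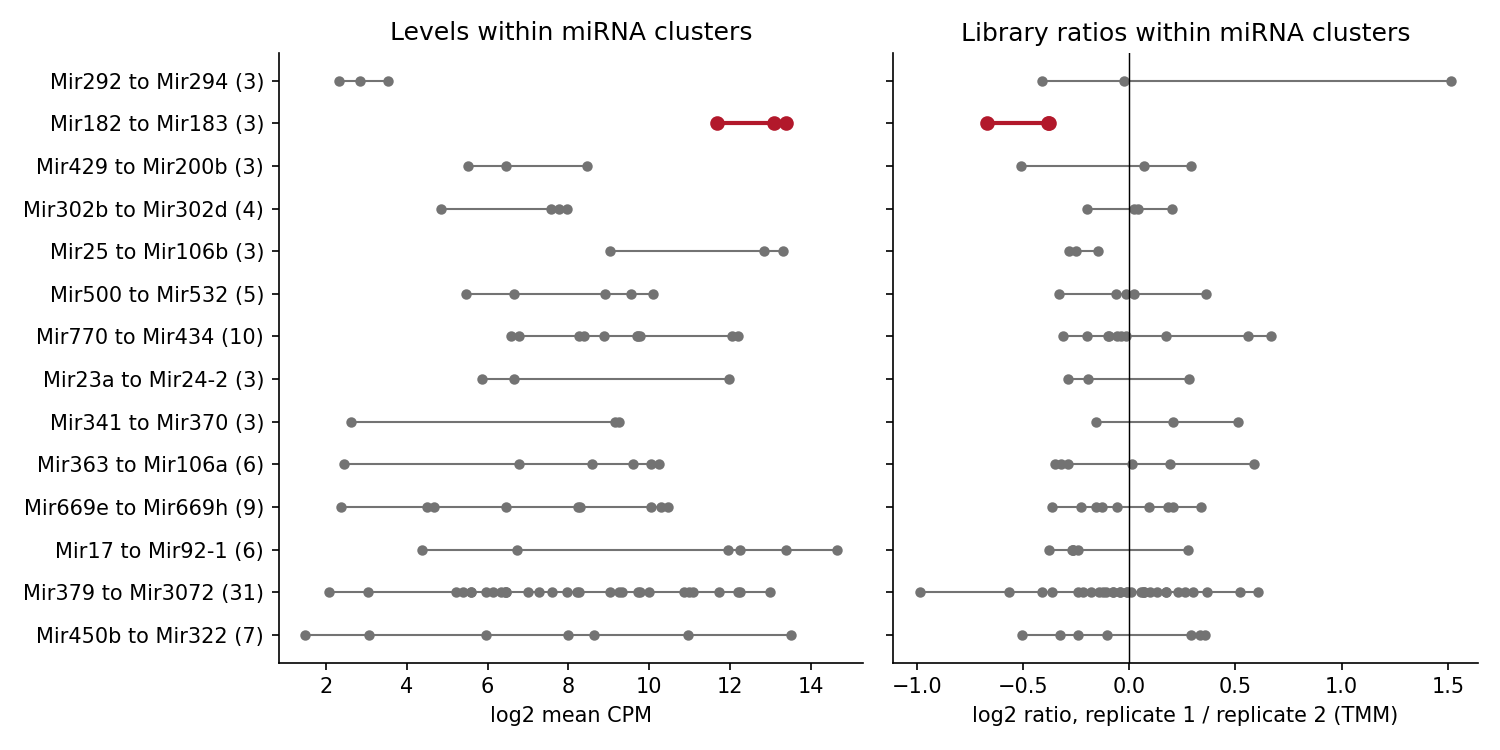
Members of the 14 miRNA clusters with at least 3 detected genes (number in brackets), with log2 mean CPM in the left panel and the log2 ratio of replicate 1 over replicate 2 in the right; each point is a gene and each line spans a cluster, sorted by the range on the left. The Mir183 cluster, in red, spans 1.69 on the left and 0.29 on the right, where all 3 points lie below 0.

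Mir182 lies farther from the other members than they do from each other, so the shift in its ratio was set beside gaps between other neighbours, a comparison chosen after the values were seen. Pairs were taken within these neighbourhoods at most 10 kb apart, with at least 1000 reads for both genes in both libraries. The log2 library ratios of Mir183 and Mir96 differed by 0.0065, with a counting SE of 0.019. Of other pairs, 1 of 35 under 1 kb apart and 2 of 76 at 1 to 10 kb differed by less. Mir182 differed from Mir183 by 0.29 and from Mir96 by 0.29, with counting SEs of 0.014 and 0.020. A larger gap than that of Mir182 and Mir96 was seen in 17 of the 35 closer pairs and in 22 of the 76 wider ones. The median difference was 0.23 in the closer pairs and 0.19 in the wider ones, so over all pairs the closer ones were not the more alike. Without pairs in which a gene shares 20 bases with another hairpin it was 0.14 over 21 closer pairs and 0.22 over 51 wider ones, the opposite order. Pairs share genes and are not independent. Most of the wider pairs, with or without shared bases, lie in the Mir770 to Mir434 and Mir379 to Mir3072 clusters of chromosome 12. The wider pairs thus describe few places in the genome.

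Measures of the libraries and of other cell types moved between the pools too. Unmapped reads were 27.3% in replicate 1 and 19.96% in replicate 2, and reads on no feature 8.04% and 4.45%. Marker miRNAs of other cells were summed as shares of gene reads. The neural list, with 7 of 10 genes detected, held 0.404% in replicate 1 and 0.446% in replicate 2, and the exact binomial test called 2 of its genes higher and 2 lower in replicate 1. Its summed share follows its most abundant gene, Mir137, a regulator of neuronal differentiation, which had 2541 CPM in replicate 1 and 3077 in replicate 2. Mir128-1 (234.3 and 152.2 CPM) and Mir128-2 (172.4 and 107.2 CPM), copies of a neuronal miRNA, went the other way, and the median log2 ratio of the 7 detected genes was 0.29, higher in replicate 1. The genes of Mir9 and Mir124a, which define neural tissue, had at most 298.0 CPM in either library, and 7 of the 9 matched genes of the list share 20 bases with other hairpins, so reads that map to several places are missing from them. The endothelial gene Mir126a held 2.03% and 1.83%. The mesenchyme list, with 6 of 7 genes detected, held 1.67% and 1.55%. The exact binomial test called 1 of its genes higher and 2 lower in replicate 1. Its median log2 ratio was -0.056, opposite in direction to its summed share.

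The epithelial list, all 7 detected, held 0.219% and 0.225%. The exact binomial test called 3 of its genes higher and 2 lower in replicate 1. Its median log2 ratio was 0.067, again opposite in direction to its summed share. The list of Mir375, Mir204 and Mir211, genes of endocrine cells and of pigmented or sensory epithelium, held 0.0410% and 0.0274%, with all 3 detected. Within it Mir375 had 362.1 and 218.4 CPM, and Mir204 43.3 and 50.2 CPM. The muscle list, with 4 of 8 genes detected, held 0.0882% and 0.0520%, and its defining genes Mir133a-1 and Mir133a-2 had 0 uniquely mapped reads in both. Each of these genes shares 20 bases with 2 other miRNA genes. Reads that map to several places may thus be missing from them, and the count of 0 does not show that they were absent. The erythroid pair Mir451a and Mir144 held 0.00914% and 0.00886%. The Mir183 cluster had in replicate 1 0.730 times its share in replicate 2. The summed shares of the 7 lists ran between 0.908 times, for the neural list, and 1.70 times, for the muscle list, and the list of Mir375, Mir204 and Mir211 had 1.499 times. The gaps in summed share of the muscle list and of the Mir375 list were thus larger than that of the cluster and in the other direction. Each follows its most abundant gene. In the Mir375 list only Mir375 was called by the exact binomial test, and the median log2 ratio was -0.094, opposite in direction to the summed share. In the muscle list Mir206 had 811.1 and 469.8 CPM, while Mir208a went the other way, at 8.95 and 12.4 CPM. The median log2 ratio of that list was 0.65. By the median of its detected genes the erythroid list was the lowest of the 7, at a log2 ratio of -0.17. That median is over 2 genes that went opposite ways, neither called by the exact binomial test. Mir451a had 76.6 CPM in replicate 1 and 68.7 in replicate 2, and Mir144 14.8 and 19.9. The part of tissue make-up or of read quality in the gap of the cluster was not tested.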

How the data were processed

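Small RNA libraries of 2 neural tube pools were analysed. The deposited files hold raw read counts of miRNA genes, not normalized by the authors, in 3 columns (both strands and each strand). Per the descriptions deposited with the files, counts were made on mm10 with genome annotation M4 from each library's own alignment. Aligner and counter: not given in the sources used here. Rows that name no gene (unmapped, several places, no feature, ambiguous) were left out of totals. The first of the strand columns, whose total was the higher, served as the gene's own strand.

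GENCODE M21 (same assembly, later release) gave symbols and coordinates, and matched 1894 of 1973 identifiers. RefSeq gave sequences. CPM used own-strand totals. TMM factors and the common coefficient of variation were estimated with edgeR 4.0.16 in R 4.3.3, with an intercept alone. A quasi-likelihood test needs 2 groups and was not run, so the libraries were compared by exact binomial tests with a threshold of 0.05. The test was also run on simulated counts that held counting error alone, as it assumes. That run could not check its calls where replicates vary by more than counting error. DESeq2 1.42.0 size factors, library totals, other read minimums, denominators, strands and joining distances were alternatives. Reads carry no molecular identifiers, so PCR copies are counted, and intervals and limits cover counting error only. Genes named besides the members are the 2 above and 2 below each in mean CPM, the 5 nearest in library ratio, genes sharing a seed, neighbours in the annotation and listed markers. Members, lists and rules were chosen with earlier results of these data known. Python 3.11.15, numpy 2.4.6, pandas 2.3.3, scipy 1.17.1 and matplotlib 3.10.9 were used.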

Additional observations from a re-analysis of the deposited data

Results flagged for a closer look

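Reads on the opposite strand of the cluster are outside the main measurement, and they exceeded 3 counts, the limit that a count of 0 allows, in both libraries for a pair of the genes. Mir183 had 9 opposite-strand reads in replicate 1 and 11 in replicate 2. Mir182 had 5 in replicate 1 and 12 in replicate 2, and Mir96 had 0 in both. They made up 0.0153% of the cluster's reads in replicate 1 and 0.0199% in replicate 2. Of 371 detected genes 46 had any opposite-strand read, and in 11 these exceeded 1% of the gene's reads.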

How the results depend on the processing

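With reads mapping to several places added to the denominator, Mir183 averaged 6415 CPM, Mir182 5272, Mir96 1989.7 and the cluster 1.37% of reads. Without the 2 most abundant genes in the denominator these were 15782, 12918, 4896 and 3.36%. Both changes act by construction on every gene of a library alike. Per base of hairpin the ratio of Mir183 to Mir96 was 4.88 and that of Mir182 to Mir96 3.69, because the Mir96 hairpin is longer. Genes past the test and 1.5-fold lower in replicate 1 numbered 3, not 6, with at least 100 reads in both libraries, where 269 genes were tested, and Mir182 was among them. Clusters with a narrower range of levels numbered 2 with neighbours joined over 50 kb, and 0 with at least 100 reads. Joined over 50 kb, the Mir183 cluster ranked 5 of 17 by summed CPM, and 3 clusters had all members on 1 side of 0. Members among the 3 lowest library ratios numbered 1, not 3, with a minimum of 100 CPM in place of 1000. The other alternatives moved these results by less than the SD of the libraries or by at most 1.5 times. With at least 1 read in either library, 9 of 736 genes tested were past the test and 1.5-fold lower in replicate 1. The log2 ratios of the members kept their sign and stayed past the test under all 4 alternatives of scaling and read minimum (-0.34 to -0.41 for Mir183, -0.63 to -0.70 for Mir182, -0.34 to -0.40 for Mir96). With 2 libraries, leaving out 1 gives no ratio between them. For levels, shares and ratios of members, either of 2 libraries always lies within their SD of the mean. Leaving out 1 library could therefore not have moved those results and is no check of them. No paired analysis was possible because there is 1 group.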
